A study of Mus musculus with 8 samples.

Results

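Messenger RNA of 10 genes of the G1 phase of the cell cycle was followed in mouse CD4 T cells activated with or without added iron. The genes were taken by name and comprise the D-type cyclins Ccnd2 and Ccnd3, the kinases Cdk4, Cdk6 and Cdk2, the phosphatase Cdc25a, the pocket protein Rb1 and the inhibitors Cdkn1b, Cdkn2c and Cdkn2d. All 10 were found among the 57010 genes in the files and all 10 were among the 13378 that passed the filter on low counts. The FAC group comprised 4 libraries from cultures with added iron, and the control group 4 libraries from cultures without it. Cells of both groups were wild type, sorted in the naive state from lymph nodes of C57BL/6 animals, and stimulated for 20 h by plate-bound antibodies, anti-CD3 and anti-CD28, at 4 µg/mL. The labels give neither the dose of FAC nor the animals' age, and each mouse number names 1 FAC and 1 control culture.

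A resting T cell stays outside the cycle until its antigen receptor and costimulation induce D-type cyclins. These join Cdk4 or Cdk6, and the active kinases phosphorylate the retinoblastoma protein, which then releases E2F factors and lets genes of DNA replication be transcribed. Cdk2 with cyclin E takes this further, Cdc25a removes inhibitory phosphates from the kinases, and inhibitors of the INK4 family (Cdkn2c, Cdkn2d) and the CIP/KIP family (Cdkn1b) hold the kinases back.

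Library totals were 25410299 to 32368404 counts with FAC and 25478740 to 37350654 counts in controls. The summed level of 8 CD4 T cell markers was 2463 to 2526 CPM with FAC and 2373 to 2571 CPM in controls, where CPM is counts scaled to a common library total with TMM factors. Markers of CD8 T cells summed to 6.26 to 8.99 CPM with FAC and 7.99 to 10.9 CPM in controls. Natural killer and myeloid markers summed to at most 0.528 CPM in any library, with Ncr1 and Lyz2 at 0 in all libraries, and erythroid markers were at 0 with FAC and at 0 to 2.47 CPM in controls. Tfrc, the transferrin receptor gene, whose mRNA is known to be degraded in iron-replete cells, averaged 572 ± 31.2 CPM with FAC and 991 ± 34.6 CPM in controls (SD, n = 4 each; log2 change -0.79, edgeR adjusted p = 3.97e-07).

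No G1 gene passed the test between FAC and control cultures (0 of 10 at an adjusted p under 0.05), where 3.27% of all tested genes did (2.18% higher and 1.1% lower with FAC). At an unadjusted p under 0.05 there were 2 of 10, Cdc25a and Cdk4, both with lower values with FAC, beside 18.4% of all tested genes (2463). DESeq2 and limma-voom likewise called 0 of the 10. The median log2 change of the 10 genes was -0.01, with 5 values below 0 and 5 above, beside -0.00143 for all tested genes. The FAC and control CPM overlapped for each of the 10, while 11.1% of tested genes had groups that did not overlap. Going by mouse, 3 members were lower with FAC in 4 of 4 mice (Ccnd2, Cdk4, Cdc25a) and 1 was higher in 4 of 4 (Cdkn1b), so 4 of 10 moved one way in every mouse, beside 30.2% of all tested genes. With the mouse as a block in the fit, Ccnd2 and Cdc25a fell (2 of 10), where 6.87% of all tested genes were called (4.07% higher and 2.8% lower with FAC). These are bulk samples, so fewer cells of a type and less RNA per cell cannot be told apart.

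**Figure D1:**
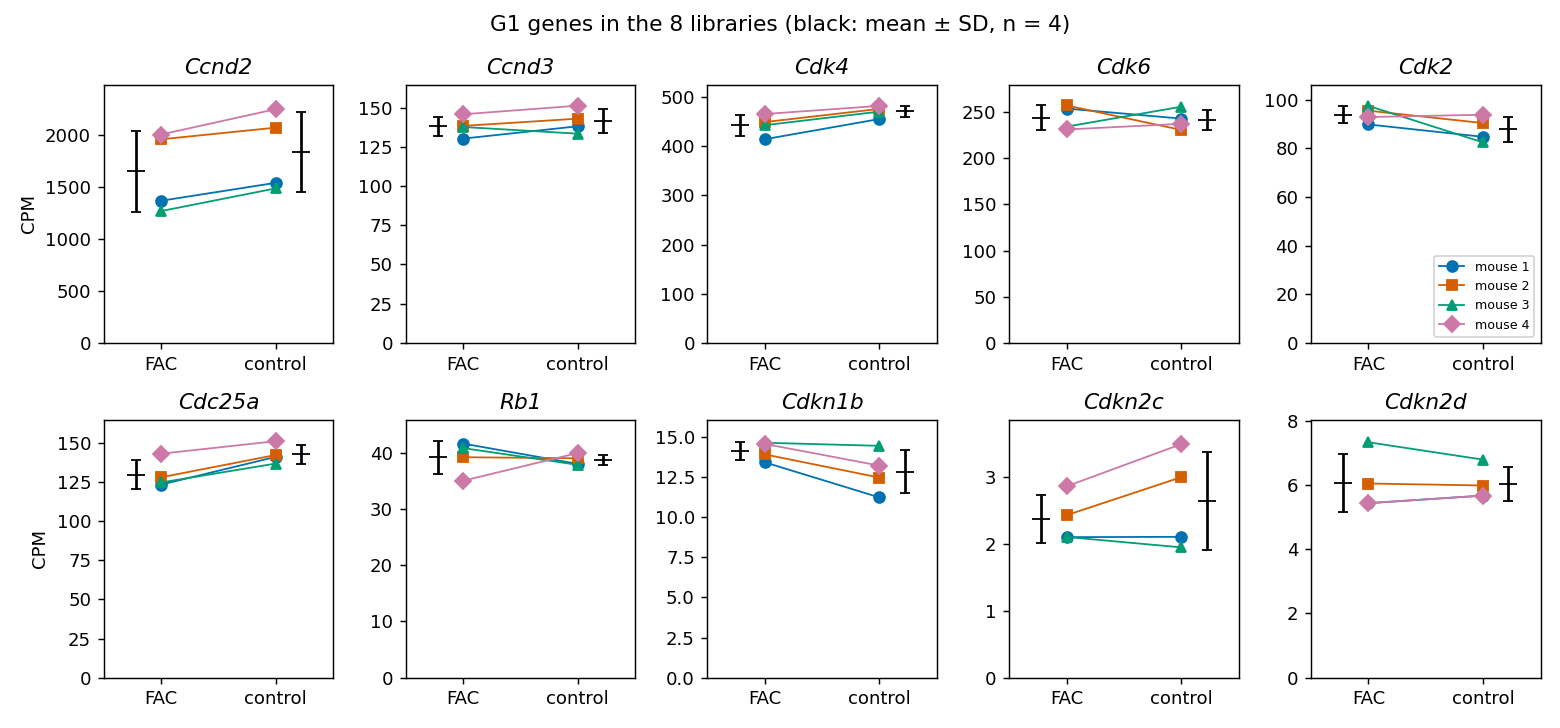
Level of each G1 gene in CPM (counts scaled to a common library total; y axis from 0, a separate scale per gene) in FAC and control cultures; lines join the 2 cultures of a mouse, and black bars are the group mean ± SD (n = 4). The Ccnd2 lines of all 4 mice slope the same way while their levels lie far apart, and no gene has FAC and control points that do not overlap.

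Among the D-type cyclins, Ccnd2 was the more abundant and varied more between mice than between treatments. Ccnd2 had 1368, 1959, 1269 and 2006 CPM in the FAC cultures of mice 1 to 4, against 1541, 2072, 1487 and 2249 CPM in their control cultures. The FAC culture was the lower one in each mouse, but mice 2 and 4 were high and mice 1 and 3 low in both groups, so the ranges overlapped. The group means were 1650 ± 386 CPM with FAC and 1837 ± 381 CPM in controls (SD, n = 4 each). Without the block, the log2 change of Ccnd2 was -0.15 (SE 0.155, 95% interval -0.49 to 0.18, edgeR adjusted p = 0.649). With the mouse as a block Ccnd2 fell, with a log2 change of -0.16 and an SE of 0.0316 (edgeR adjusted p = 0.0105); it decreased by 10.6%. Leaving out 1 mouse at a time kept that call without mouse 1 (adjusted p = 0.0431), mouse 2 (0.00552) and mouse 4 (0.0135), and ended it without mouse 3 (0.144).

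Ccnd3, the other D-type cyclin of T cells, had 130.2, 138, 138 and 146 CPM in FAC cultures of mice 1 to 4, against 138, 143, 133 and 151 CPM in control cultures. These values lay within a narrow band and overlapped, with the FAC culture lower in 3 of 4 mice. The log2 change was -0.04 (SE 0.0469, 95% interval -0.14 to 0.07, edgeR adjusted p = 0.738), and with the block the adjusted p was 0.586. On the per-length scale of TPM the ratio of Ccnd2 to Ccnd3 was 3.56 to 5.68 with FAC and 3.86 to 6.22 in controls.

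The size of the Ccnd2 difference was close with and without a correction for transcript length, but its error was larger with it. The isoform-weighted transcript length that the authors' RSEM output lists for Ccnd2 was 4813, 4470, 4594 and 4309 bases in FAC cultures of mice 1 to 4, against 4358, 5172, 4763 and 4203 bases in controls. Ccnd2 TPM was 415, 644, 410.3 and 681 in FAC cultures, against 509.7, 556, 452 and 778 in controls. On this scale the FAC culture was lower in 3 of 4 mice, and mouse 2 went the other way by 0.21 on the log2 scale, the mouse whose lengths differed most. With each library's effective length as an offset together with the block, an alternative added after the data had been seen, the log2 change of Ccnd2 was -0.14 with an SE of 0.0619 (edgeR adjusted p = 0.273), beside -0.16 and an SE of 0.0316 with the block alone. That fit called 0 of the 10 G1 genes and 1.64% of all tested genes. Whether transcript use or its estimate differs was not tested.

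**Figure D2:**
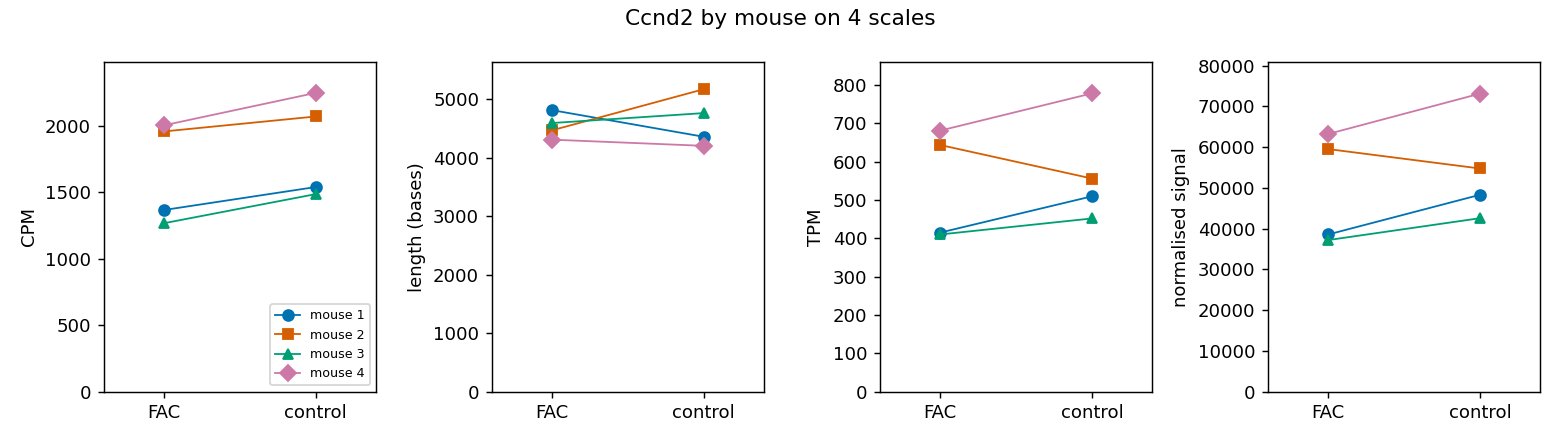
Ccnd2 in FAC and control cultures on 4 scales, with lines joining the 2 cultures of a mouse: CPM, isoform-weighted transcript length in bases, TPM, and the authors' normalised signal (all y axes from 0). CPM slopes one way in all 4 mice, whereas TPM and the normalised signal slope the other way in mouse 2, where the length is 4470 bases with FAC and 5172 bases in the control.

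Of the D-cyclin-dependent kinases, Cdk4 was the most abundant member per length (mean 944 TPM over the 8 libraries) and Cdk6 stood far below it (45.5 TPM). Cdk4 had 414, 449, 443 and 466 CPM in FAC cultures of mice 1 to 4, against 456, 476, 471 and 482 CPM in control cultures. Each FAC culture was below the control culture of its mouse, and the groups overlapped. The log2 change was -0.09 (SE 0.0395, 95% interval -0.17 to -0.00381, edgeR adjusted p = 0.249), and the adjusted p with the block was 0.0857. Cdk4 carries reads that RSEM divided with other genes (its expected count was not whole, within 0.005, in any library), as do Ccnd3 and Rb1, so their levels are uncertain to that extent. Ccnd2 was whole in 5 of 8 libraries and Cdk6 in 3 of 8, so the same holds for both in the other libraries. The promoters of Cdk4, Cdc25a and Cdk2 are shown because, of the 8 members that matched an entry in the RefSeq promoter table, these hold an E2F word or several E-boxes. The Cdk4 promoter (RefSeq, GRCm38.p6, chr10:127063285-127063534, plus strand, the 250 bases before the start) holds the E-box CACGTG, the letters bound by Myc with Max, at 172, 118, 98 and 11 bases before the start, in capitals:
Cdk4: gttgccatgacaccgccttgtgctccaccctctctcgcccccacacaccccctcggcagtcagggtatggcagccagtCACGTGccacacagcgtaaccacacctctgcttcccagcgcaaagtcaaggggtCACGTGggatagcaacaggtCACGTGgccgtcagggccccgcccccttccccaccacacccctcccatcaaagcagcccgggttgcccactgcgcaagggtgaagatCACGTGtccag
At least 1 such E-box was present in 6.02% of 32851 promoters of this length, and 4 or more in 0.0213%. The Cdk6 promoter holds 1, at 220 bases before the start. A match of letters is a description and not a site of binding.

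Cdk6 had 254, 257, 234 and 231 CPM in FAC cultures of mice 1 to 4, against 243, 230.5, 256 and 237 CPM in control cultures. FAC cultures were higher in mice 1 and 2 and lower in mice 3 and 4, and the log2 change was 0.01 (SE 0.0451, 95% interval -0.08 to 0.11, edgeR adjusted p = 0.896). In mouse 2, Cdk6 TPM was 51.7 with FAC and 36.0 in the control (log2 difference 0.52), beside listed lengths of 7198 and 8782 bases. The Cdk4 to Cdk6 ratio in TPM was 17.9 to 22.3 with FAC and 19.3 to 25.7 in controls, and the ranges overlapped.

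Cdk2, the partner of cyclins E and A, had 89.8, 95.5, 97.4 and 92.9 CPM in FAC cultures of mice 1 to 4, against 84.7, 90.4, 82.4 and 93.8 CPM in control cultures. The FAC value was above the control value in 3 of 4 mice, by most in mouse 3. The log2 change was 0.10 (SE 0.0488, 95% interval -0.01 to 0.20, edgeR adjusted p = 0.320), and the adjusted p with the block was 0.199. The listed transcript length of Cdk2 was 2316 to 2408 bases with FAC and 2243 to 2332 bases in controls. This length was greater with FAC in 4 of 4 mice, and the groups overlapped. With the length offset and the block the log2 change of Cdk2 was 0.05 (edgeR adjusted p = 0.695), beside 0.10 with the block alone. The Cdk2 promoter (RefSeq, GRCm38.p6, chr10:128705052-128705301, minus strand, 250 bases before the start) holds GCGGGAAA, the reverse complement of the E2F word TTTCCCGC, at 140 bases before the start:
Cdk2: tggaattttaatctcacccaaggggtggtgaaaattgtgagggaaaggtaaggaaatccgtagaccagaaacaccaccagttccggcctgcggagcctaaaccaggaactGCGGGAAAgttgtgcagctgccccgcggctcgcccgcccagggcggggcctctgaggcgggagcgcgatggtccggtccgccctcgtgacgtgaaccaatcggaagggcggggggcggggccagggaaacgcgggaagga
The words searched on both strands for E2F were TTTCCCGC, TTTCGCGC, TTTGCCGC and TTTGGCGC, and 1.86% of the 32851 promoters hold at least 1 of them.

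Cdc25a, which activates the Cdk2 complexes, had 123, 128, 125 and 143 CPM in FAC cultures of mice 1 to 4, against 141, 142, 137 and 151 CPM in control cultures. The FAC culture was lower in each mouse, and only the FAC culture of mouse 4 reached above the lowest control. Without the block, the log2 change was -0.14 (SE 0.0505, 95% interval -0.25 to -0.03, edgeR adjusted p = 0.163). With the mouse as a block Cdc25a fell, with a log2 change of -0.14 and an SE of 0.0337 (edgeR adjusted p = 0.0274); it decreased by 9.22%. Over the fits on groups alone that leave out 1 library each, its edgeR adjusted p was 0.0286 to 0.392. It was called only without the FAC library of mouse 4, the one that reached above the lowest control (log2 change -0.19, adjusted p = 0.0286). The blocked call held without mouse 4 (adjusted p = 0.0167) and not without any of the other mice (up to 0.161), nor with the length offset added to the block (log2 change -0.14, adjusted p = 0.145). Its promoter (RefSeq, GRCm38.p6, chr9:109875329-109875578, plus strand, 250 bases before the start) holds the E2F word TTTGGCGC at 67 bases before the start:
Cdc25a: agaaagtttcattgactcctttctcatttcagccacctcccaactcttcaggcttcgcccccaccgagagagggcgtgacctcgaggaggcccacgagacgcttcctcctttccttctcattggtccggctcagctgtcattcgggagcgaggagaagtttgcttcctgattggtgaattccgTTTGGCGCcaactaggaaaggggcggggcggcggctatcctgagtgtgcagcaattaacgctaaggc
The Cdc25a window holds no CACGTG.

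Rb1, the retinoblastoma protein gene, had 41.7, 39.2, 40.9 and 35.05 CPM in FAC cultures of mice 1 to 4, against 38.1, 39.1, 37.9 and 40.0 CPM in control cultures. The control libraries lay close together and the FAC libraries on both sides of them. The log2 change was 0.02 (SE 0.0582, 95% interval -0.11 to 0.14, edgeR adjusted p = 0.902), and its sign turned on the TPM scale.

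The inhibitors were the least abundant of the G1 genes, and none passed the test. Cdkn1b, which encodes p27 and binds cyclin-kinase complexes, had 13.4, 13.9, 14.6 and 14.6 CPM in FAC cultures of mice 1 to 4, against 11.2, 12.5, 14.4 and 13.2 CPM in control cultures. The FAC culture was higher in each mouse, by the least in mouse 3, and the groups overlapped. The log2 change was 0.14 (SE 0.0861, 95% interval -0.05 to 0.32, edgeR adjusted p = 0.429), and the adjusted p with the block was 0.273. The listed transcript length of Cdkn1b was 2829 to 3001 bases with FAC and 2609 to 2829 bases in controls, the longest control being just below the shortest FAC value. Of tested genes whose listed length varied, 4.63% had groups that did not overlap. With the length offset and the block the log2 change of Cdkn1b was 0.04 (edgeR adjusted p = 0.866).

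Cdkn2c, which encodes p18, was the least abundant member, with 2.10, 2.42, 2.10 and 2.86 CPM in FAC cultures of mice 1 to 4, against 2.10, 2.99, 1.94 and 3.48 CPM in control cultures. Behind these values stood 61 to 79 counts with FAC and 53 to 110 counts in controls, and the interval of its log2 change was the widest of the 10 genes (-0.62 to 0.30, estimate -0.16, edgeR adjusted p = 0.748). Cdkn2d, which encodes p19, had 5.43, 6.05, 7.33 and 5.44 CPM in FAC cultures, against 5.67, 5.98, 6.79 and 5.67 CPM in control cultures. Its FAC values were higher in 2 of 4 mice, mouse 3 was the highest in both groups, and the log2 change was 0.01 (SE 0.127, 95% interval -0.27 to 0.28, edgeR adjusted p = 0.984). The Cdkn2d to Cdkn2c ratio in TPM was 2.90 to 5.61 with FAC and 2.52 to 4.61 in controls.

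**Figure D3:**
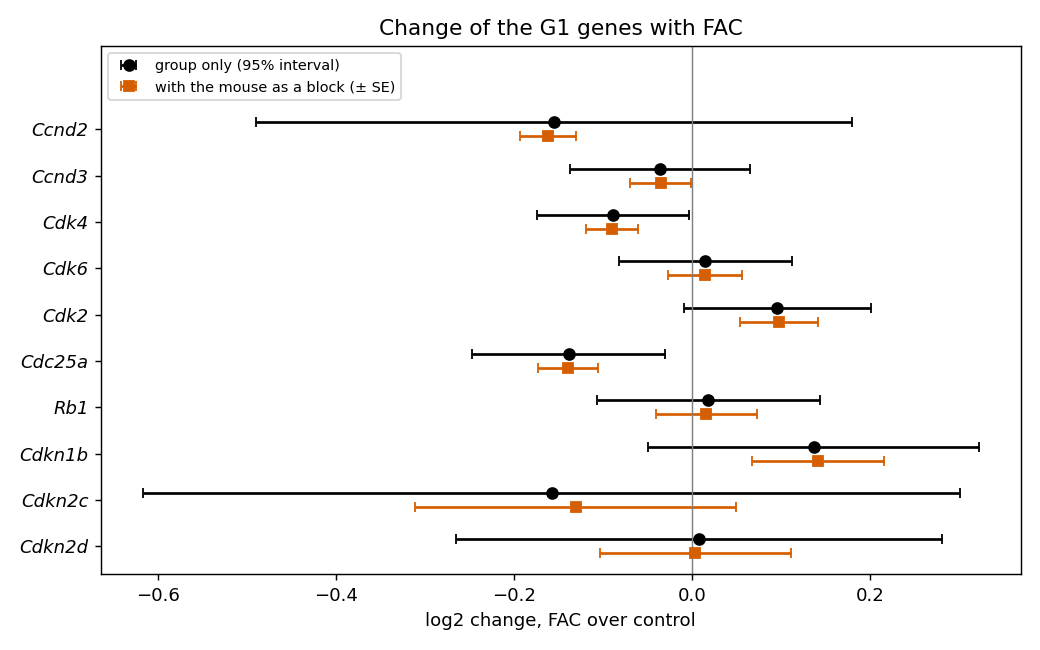
Log2 change of each G1 gene, FAC over control (x axis), from the fit on groups alone (black circles, 95% interval) and from the fit with the mouse as a block (orange squares, ± SE). The 2 kinds of bar are not on one scale: the SE of Ccnd2 is 0.0316 with the block and 0.155 on groups alone, at log2 changes of -0.16 and -0.15. Cdkn2c has the widest bar in both fits.

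Per length, the order of the members over the 8 libraries was Cdk4, Ccnd2 (mean 556 TPM, range 410.3 to 778), Ccnd3 (115), Cdk2 (58.6), Cdc25a (56.9), Cdk6 (45.5), Rb1 (13.6), Cdkn2d (7.71), Cdkn1b (7.06) and Cdkn2c (2.19). Cdk4 (857 to 1027 TPM) lay above Ccnd2 in every library. The ranges of Cdk2 and Cdc25a, of Cdc25a and Cdk6, and of Cdkn2d and Cdkn1b overlapped, and those of the other neighbours in this order did not. The kinases and D-type cyclins stood at higher TPM than each of the inhibitors in every library.

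Genes around the 10 members were taken from lists of the cell cycle, 93 genes in the files of which 89 were tested. Among them Cdkn1a alone passed the test (1 of 89, lower), against 3.27% of all tested genes, and 12 of 89 (13.5%) had an unadjusted p under 0.05, beside 18.4% of all tested genes. Cdkn1a encodes p21, the CIP/KIP inhibitor induced by p53. It had 20.8, 22.2, 20.2 and 20.7 CPM in FAC cultures of mice 1 to 4, against 27.6, 30.4, 31.2 and 31.5 CPM in control cultures. The groups did not overlap, and Cdkn1a fell, with a log2 change of -0.53 and an SE of 0.0613 (edgeR adjusted p = 2.88e-04). It remained called with the mouse as a block, with the length offset added to it, and without any 1 library (adjusted p 2.60e-04 to 0.00229). Of the other inhibitors, Cdkn2a was at 0 in all libraries, Cdkn2b reached 1 count at most and Cdkn1c 8 counts at most, so none was tested. Cdkn3, a phosphatase that acts on kinases of the cycle, averaged 0.331 ± 0.185 CPM with FAC and 0.309 ± 0.245 CPM in controls.

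The other cyclins gave 0 calls among 4 tested (median log2 change -0.11). Ccnd1 was near the floor, at 0.241 to 0.860 CPM with FAC and 0.272 to 0.634 CPM in controls. Ccne1, the partner of Cdk2 at the start of DNA replication, averaged 24.3 ± 2.37 CPM with FAC and 24.1 ± 2.20 CPM in controls (log2 change 0.01, edgeR adjusted p = 0.964). Ccna2, the cyclin of S phase, averaged 25.2 ± 6.61 CPM with FAC and 29.2 ± 7.67 CPM in controls (log2 change -0.22, SE 0.183, adjusted p = 0.564). It was lower with FAC in 4 of 4 mice, where 30.2% of all tested genes moved one way in every mouse. With the mouse as a block its log2 change was -0.21 (SE 0.0648, edgeR adjusted p = 0.0664).

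The pocket proteins, E2F factors and their DP partners gave 0 calls among 12 (median log2 change -0.03). E2f4, a repressive E2F, averaged 283 ± 13.5 CPM with FAC and 282 ± 9.48 CPM in controls, and Tfdp1, a partner of E2F factors, 364 ± 6.37 CPM with FAC and 378 ± 8.99 CPM in controls. The kinases, phosphatases and chaperones that activate or inhibit the CDKs gave 0 calls among 8 (median 0.00425). Of these, the CDK chaperone Cdc37 averaged 368 ± 9.44 CPM with FAC and 373 ± 10.04 CPM in controls, and Ccnh, the cyclin of the CDK-activating kinase, 45.2 ± 3.35 CPM with FAC and 44.3 ± 2.01 CPM in controls.

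Genes of the turnover of p27 and cyclins gave 0 calls among 12 (median log2 change -0.03), among them the ubiquitin ligase subunits Skp1 (189 ± 11.4 CPM with FAC, 199 ± 10.2 CPM in controls) and Rbx1 (74.5 ± 2.96 CPM with FAC, 78.8 ± 1.95 CPM in controls). The list of the MuvB complex, which also holds the Myb genes Mybl1 and Mybl2, gave 0 calls among 6 (median -0.04). Rbbp4, the histone-binding subunit of the complex, averaged 294 ± 9.43 CPM with FAC and 302 ± 12.7 CPM in controls. Lin37 averaged 11.8 ± 0.806 CPM with FAC and 11.4 ± 1.14 CPM in controls.

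Upstream regulators of G1 entry gave 0 calls among 10 (median log2 change -0.01). Myc, a transcription factor that drives G1 entry and cell growth, averaged 709 ± 29.3 CPM with FAC and 774 ± 31.4 CPM in controls (log2 change -0.13, adjusted p = 0.116). Stat5a, a signal transducer of the interleukin-2 receptor, averaged 242 ± 12.5 CPM with FAC and 242 ± 7.14 CPM in controls. With the mouse as a block, 6 of the 89 genes were called, beside 6.87% of all tested genes. Cdkn1a, Myc and the ubiquitin ligase subunit Fbxw7 fell, with block adjusted p of 1.46e-04, 0.0270 and 0.0109. The pocket protein gene Rbl2, the inhibitory kinase Pkmyt1 and Rnf123, a subunit of a ligase for p27, rose, with block adjusted p of 0.0425, 0.00378 and 0.0228. Fbxw7, Rbl2, Pkmyt1 and Rnf123 were chosen for mention after their values were seen, and none of the 4 is named by the rule for the lists. Once the length offset was added Cdkn1a alone was called, while the log2 changes stayed close to those of the block alone. They were -0.13 with the offset and -0.13 without it for Myc, -0.25 and -0.25 for Fbxw7, 0.24 and 0.26 for Rbl2, 0.28 and 0.30 for Pkmyt1, and 0.25 and 0.21 for Rnf123. Over the 4 blocked fits that leave out 1 mouse each, Cdkn1a was called in 4, Fbxw7 and Pkmyt1 in 3, Rnf123 in 2, Myc in 1 and Rbl2 in 0 (adjusted p of Rbl2 0.0685 to 0.173).

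Downstream of E2F, 0 of 22 genes of the G1/S transition passed the test, and 0 with the mouse as a block. Their median log2 change was -0.07, beside -0.00143 for all tested genes, and 21 of the 22 values were below 0. A mouse effect was found in 7 of the 22, beside 1.26% of all tested genes, and each mouse gave 1 culture to each group. All 22 were read from the same 8 libraries, so these signs cannot be counted as independent of each other. Whether they fall together was not tested. Pcna, the sliding clamp of DNA polymerase, averaged 592 ± 31.0 CPM with FAC and 623 ± 33.6 CPM in controls. Mcm5, a subunit of the replicative helicase, averaged 724 ± 56.1 CPM with FAC and 760.5 ± 62.8 CPM in controls. Of genes of G2 and M phase, 0 of 13 passed (median -0.05), with Top2a, a topoisomerase, at 132 ± 21.8 CPM with FAC and 144 ± 24.5 CPM in controls, and Cdk1, the kinase of mitotic entry, at 28.7 ± 5.27 CPM with FAC and 31.0 ± 6.95 CPM in controls.

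**Figure D4:**
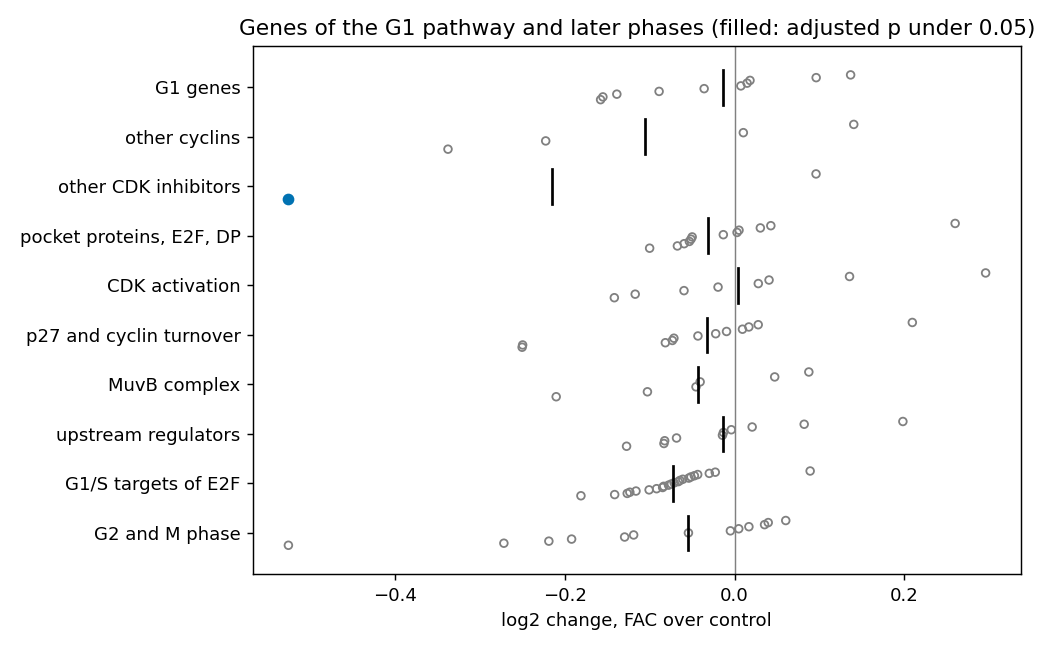
Log2 change, FAC over control, of each tested gene (circles) of the G1 genes and of 9 lists of related cell cycle genes, with the list median as a black bar. The filled point, Cdkn1a at -0.53, is the one gene with an adjusted p under 0.05. Of 22 G1/S targets of E2F, 21 lie left of 0, but none is filled. Their signs come from the same 8 libraries and cannot be counted as independent.

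The spread of Ccnd2 between mice was examined after the data had been seen, with an F test over the mouse terms of the blocked fit. Of the 10 G1 genes, Ccnd2 was the 1 with a mouse effect (edgeR adjusted p = 1.70e-05, 1.26% of all tested genes called), and it ranked 3 of 13378 genes. Averaged over the 2 cultures of a mouse, its log2 CPM deviated from its own mean by -0.24, 0.24, -0.32 and 0.31 in mice 1 to 4. The other members had mouse-effect adjusted p of 0.212 (Cdc25a) and above. Anything that goes with a mouse (its own genotype within the labelled wild-type strain, sort, culture, extraction) cannot be told apart in this design.

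Other cell cycle genes also differed between mice. Of the 89 tested, 20 had a mouse effect (22.5%, beside 1.26% of all tested genes), among them Ccna2, Mcm5, Cdk1, Top2a, Mki67 and Foxm1. Foxm1 is also among the neighbours of Ccnd2 described next, and 19 of the 20 lie on other chromosomes. Mouse 4 was highest in 19 of these 20, mouse 1 was lowest in 17, and mouse 2 was above mouse 3 in 19. Ccnd2 had its highest level in mouse 4 too, but its lowest in mouse 3.

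The genes next to Ccnd2 on chromosome 6 differed between mice as well. Of 40 tested protein-coding genes, the nearest 20 on each side in the gene order of GENCODE M21 (GRCm38), 18 had a mouse effect (45%), against 5 of the 596 other tested genes of the chromosome (0.839%) and 1.12% of 12521 on the others. From Ndufa9, 4 genes to one side of Ccnd2, to Smim10l1, 19 genes to the other, 17 of 23 genes had a mouse effect, and in all 17 mice 2 and 4 lay above mice 1 and 3. The ends of this run were set by genes with a mouse effect, so the 17 of 23 describes the run and tests nothing. Ybx3, a cold shock domain protein gene, and Fkbp4, an Hsp90 cochaperone gene, ranked 1 and 2 of all tested genes. Tigar and Parp11, directly beside Ccnd2, both had the pattern, as did Cd69, an early activation marker of T cells. The median log2 deviation of the 40 genes was -0.15, 0.21, -0.12 and 0.16 in FAC cultures of mice 1 to 4, against -0.10, 0.13, -0.19 and 0.11 in control cultures. In both kinds of culture mice 2 and 4 lay above mice 1 and 3. Cdkn1b lies on the same chromosome with 26 tested protein-coding genes between it and Ccnd2, and had no mouse effect at the threshold (adjusted p = 0.549). With the block, 2 of the 40 genes fell with FAC (Gapdh and Magohb) and 3 rose (Vamp1, Clec2i and Cd69). Of all tested genes 2.8% were called lower and 4.07% higher in that fit. The median log2 change of the 40 genes was 0.02.

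**Figure D5:**
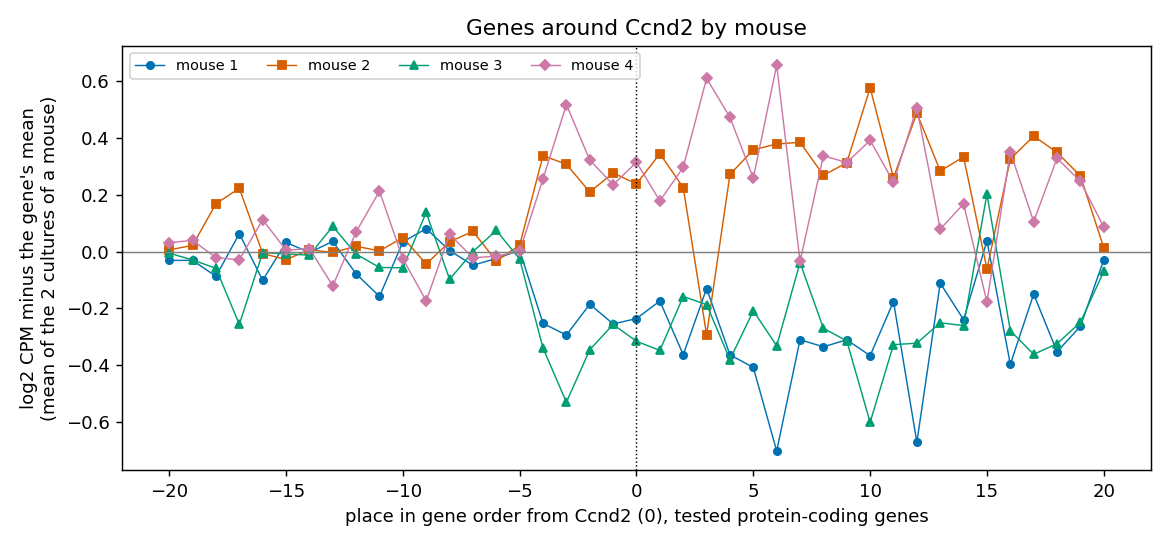
Log2 CPM of Ccnd2 (place 0) and of the 20 tested protein-coding genes on each side of it, in gene order, as the deviation of each mouse (mean of its FAC and control culture) from the gene's mean. Between places -4 and 19 the lines of mice 2 and 4 run mostly above 0 and those of mice 1 and 3 mostly below it.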

How the data were processed

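RNA sequencing libraries (250 ng of total RNA, stranded mRNA kit, per the labels' protocols) of 4 FAC and 4 control cultures were analysed. The submitters' processing notes name STAR 2.7.6a, RSEM 1.3.1, DESeq2 1.26.0 and the genome build GRCm39; the annotation release and the strand setting are not given in the sources used here. RSEM gene output was deposited by the authors, per the file headers: expected counts, unscaled estimated counts per gene, TPM, which RSEM scales for transcript length and to a fixed library total, and isoform-weighted and effective lengths in bases. A deposited table by the authors gives a normalised signal for 13751 genes, and was used for 1 alternative only.

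Expected counts were rounded to whole numbers and filtered (edgeR's filterByExpr, minimum count 10, minimum total 15), leaving 13378 of 57010 genes with 99.9% of counts. Groups were compared by the quasi-likelihood test of edgeR (version 4.0.16 under R 4.3.3, TMM factors, group as the only term, two-sided), with Benjamini-Hochberg adjustment over all tested genes and a threshold of 0.05. The same holds for each "edgeR adjusted p". The SE is the absolute log2 change over the square root of F, and is approximate. The floor of 3 counts equals 0.0816 to 0.119 CPM; it covers counting error only, as reads carry no molecular identifiers. Replicates differed beyond sampling noise, and each library counted once. The edgeR fit on groups alone was tried on simulated counts that held no mouse effect. The blocked fit, the length offset and the mouse-effect test were not tried in this way.

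Alternatives were the mouse as a replicate block, DESeq2 size factors, DESeq2 1.42.0, limma-voom (limma 3.58.1), limma on log2(TPM + 1), log2(TPM + 0.1) and log2(signal + 1), no filter, and leaving out each library or mouse. The effective length offset, the mouse-effect test and the neighbours of Ccnd2 were chosen after seeing the data. Mouse numbers pair cultures because they name the same animal. Deviations from group means correlated across genes at r = 0.137, 0.0165, 0.0647 and 0.139 within mice 1 to 4, and at -0.18 to 0.0331 between mice.

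The G1 genes and the cell cycle lists were chosen with earlier results of these data known. The rule for named genes gave all members, up to 4 called genes and the 2 of highest TPM of each list, and Tfrc; other genes named, such as Ccnd1, Mki67, Foxm1, the untested inhibitors and the neighbours of Ccnd2, were chosen after their values were seen. Promoter windows are from RefSeq (GRCm38.p6), where 8 of 10 members matched. No coordinates of the files' build were used.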

Additional observations from a re-analysis of the deposited data

Results flagged for a closer look

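In groups of 4 libraries, a value was looked at again where its gap to the nearest other library passed Dixon's critical value as a share of the group's range. Of 78 groups checked, 5 met this, and chance alone gives about 1 in 20. In 3 of them the listed transcript length was the measure, all in FAC cultures. The lowest Ccnd3 length, 1835 bases, stood apart from 1866 to 1868 bases (gap 0.956 of the range). The lowest Cdk4 length, 805 bases, stood apart from 841 to 844 bases (gap 0.922). The highest Cdk6 length, 8563 bases, stood apart from 7197 to 7390 bases (gap 0.858). Of the pathway genes, the highest FAC library of Ccnh, at 50.1 CPM, stood apart from 43.1 to 44.2 CPM (gap 0.848), and the lowest control library of Lin37, at 9.69 CPM, from 11.8 to 12.05 CPM (gap 0.901).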

How the results depend on the processing

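The count of all called genes, 438 on groups alone, was 919 with the replicate block, 797 with DESeq2, 736 with no filter, 195 with the length offset, 219 with block and offset, 144 and 138 with limma on log2(TPM + 1) and log2(TPM + 0.1), and 156 on the deposited signal. Without 1 library it was 147 to 549; it moved by over 1.5 times without FAC 2 (168), FAC 3 (147), control 1 (188), control 2 (209) and control 3 (247). Without 1 mouse, with the block, it was 165 (mouse 3) to 1217 (mouse 4), with 601 without mouse 1 and 454 without mouse 2. Of the calls, 66.4% were higher with FAC on groups alone, 77.8% on log2(TPM + 1) and 78.3% on log2(TPM + 0.1). The mouse as a replicate block moved the G1 genes called to 2 (Ccnd2 at -0.16 and Cdc25a at -0.14); the count was 0 to 1 without 1 library and 0 to 2 without 1 mouse.

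The block also gave 1 call among the pocket and E2F genes, 1 for CDK activation, 2 for turnover and 1 upstream. DESeq2 gave 1 call each for the other cyclins, pocket and E2F genes, CDK activation, turnover and upstream lists. With no filter there was 1 for the other cyclins, 1 for CDK activation and 2 for turnover. Leaving out a library gave 0 to 1 for CDK activation and turnover. Leaving out a mouse gave 0 to 1 for the other cyclins, CDK activation and upstream lists and 0 to 2 for turnover, and 0 in every case for the pocket and E2F genes.

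Signs that turned were all of uncalled genes, and the cause was not tested. With limma-voom, Cdkn2d was -0.00175 and Ccne1 -0.00533; with no filter Cdkn2d was -0.00582, Ccne1 -0.00269 and E2f4 -0.00715. On log2(TPM + 1) and log2(TPM + 0.1), Rb1 was -0.00184 and -0.00202, Lin37 was -0.00196 and -0.00187, Tfdp1 was 0.0257 and 0.0258, Rbbp4 was 0.00688 and 0.00693, Stat5a was 0.0301 and 0.0304. The median log2 change of all tested genes was 0.0346 and 0.0404 on these scales, beside -0.00143 in the edgeR fit on groups alone. On the deposited signal Rb1 was -0.0495, Lin37 was -0.0495, Cdkn3 was -0.105, E2f4 was -0.00295. With the length offset, and with block and offset, Rb1 was -0.0382 and -0.0382 and Lin37 was -0.0436 and -0.039. Over the fits without 1 library, and those with the block without 1 mouse, log2 changes ran as follows: Ccnd2 -0.263 to -0.0436, Cdk6 -0.0337 to 0.0604, Cdkn2c -0.284 to 0.00207, Cdkn2d -0.0975 to 0.0639, Rb1 -0.0226 to 0.0764, Cdc25a -0.189 to -0.111, Ccne1 -0.0549 to 0.0945, Cdkn3 -0.18 to 0.761, E2f4 -0.0193 to 0.0356, Cdc37 -0.0583 to 0.000262, Ccnh -0.0385 to 0.0762, Lin37 -0.0539 to 0.106, Stat5a -0.0466 to 0.0272, Cdk1 -0.236 to 0.0204.

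The 53 to 110 counts per library of Cdkn2c limit its precision, and the 4 libraries per group that of every gene. The intervals of the members' changes bound what these data can show, and a missed threshold is no sign of equal levels.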
